A study of Homo sapiens with 60 samples.

Results

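Acute osimertinib in PC9 was followed in 6 of the 60 RNA-Seq libraries of the series, 3 treated with the drug and 3 with DMSO, its solvent, and the labels, not measured values, define both groups. PC9 is an established lung adenocarcinoma cell line whose growth depends on a mutant EGFR, and osimertinib is a covalent EGFR inhibitor. Cells of both groups had been kept without drug for 21 days and then received either 500 nM osimertinib or DMSO for 24 h. The remaining libraries hold later drug arms of PC9 and the same arms of the EGFR-mutant lines HCC827, H1975 and HCC2935. Only the DMSO and 24 h libraries of those lines, 18 in all, were used here for comparison. PC9 is a single line, seen at a single dose and time, and RNA was measured on whole cultures, so fewer cells of a kind and less RNA per cell cannot be told apart. The labels call the replicates biological and do not say whether they were separate cultures, so the p-values measure the spread between these libraries.

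Mutant EGFR signals through RAS, RAF, MEK and ERK and, in parallel, through PI3K and AKT. ERK raises its own brakes, the DUSP phosphatases and the Sprouty (SPRY) and SPRED proteins, together with the ETS factors ETV4 and ETV5 and AP-1 factors such as FOSL1, so the mRNAs of these genes are used as a readout of the pathway. AKT holds FOXO transcription factors out of the nucleus, and ERK and AKT restrain BH3-only proteins such as BIM (BCL2L11) and BMF, which start apoptosis. Exit from the cell cycle lowers the genes of DNA replication and mitosis.

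Depth was similar in both arms, with 36.9 to 47.1 M estimated counts in a DMSO library and 39.0 to 46.2 M in an osimertinib library. Levels are given as CPM, a read count scaled to library size that does not allow for gene length. Replicates correlated at 0.992 to 0.995 across genes, and libraries of different arms at 0.901 to 0.93. Of 19712 genes, 5636 had too few counts and 14076 were tested with edgeR's quasi-likelihood test. A gene was called when its p-value, adjusted over all genes tested, was under 0.05. By that rule 9636 genes were called (68.5%), of which 4837 were higher (34.4%) and 4799 lower (34.1%) under osimertinib. At least 2-fold higher were 2273 genes (16.1%) and at least 2-fold lower 1763 (12.5%). With so many genes called, a list of genes is described here by how far its counts lie from these shares and by its median, against a median log2 fold change of 0.03 over all genes tested.

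At least 4-fold higher were 877 genes against 347 that were at least 4-fold lower, and past 8-fold the numbers were 364 and 80. With limma on log2 of TPM + 1, which damps low genes, the genes at least 2-fold higher and lower were 1438 and 1383. Genes that rose at least 2-fold took 3.71% of all TPM, a unit that allows for gene length, in DMSO and 12.3% under osimertinib, and genes that fell at least 2-fold went from 11.7% to 4.31%. Of the 14076 genes tested, the 3 libraries of an arm did not overlap with those of the other in 5230 that were above DMSO and 5137 that were below it. Most genes tested thus showed no overlap, so a lack of overlap does not by itself set a gene apart.

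**Figure D1:**
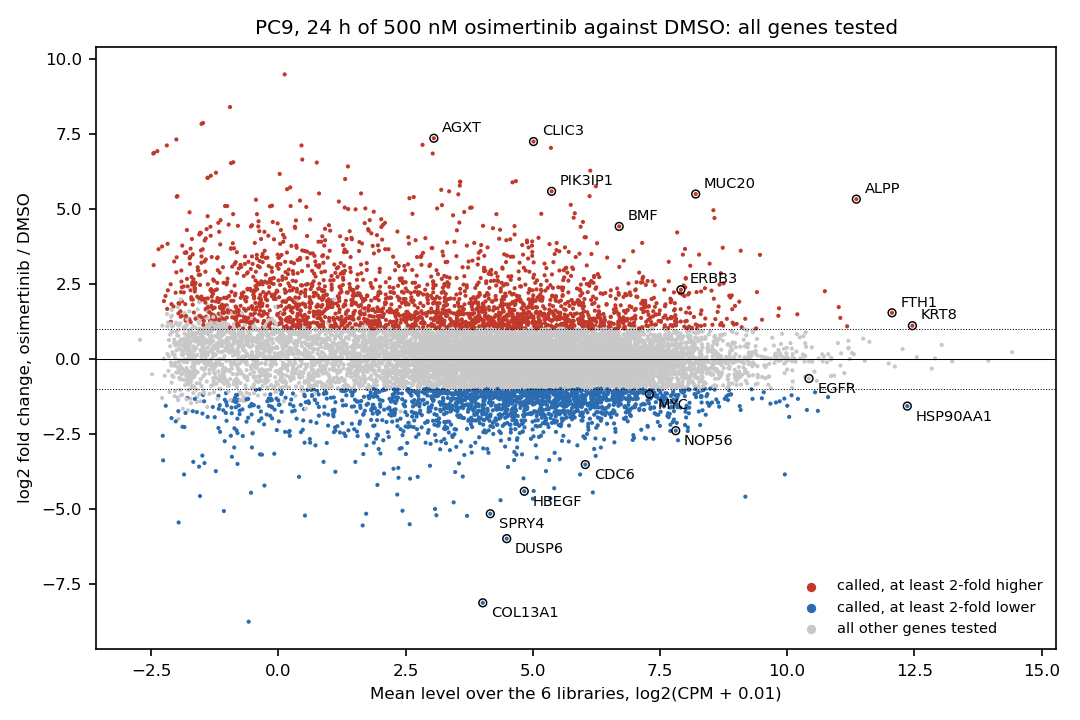
Each point is a gene tested in PC9, with its mean level over the 6 libraries as log2 of CPM plus 0.01 on the x axis and its log2 fold change, osimertinib over DMSO, on the y axis. Red and blue mark the 2273 and 1763 genes called at least 2-fold higher and lower, dotted lines lie at 2-fold, and circles mark named genes such as DUSP6 at -6.00 and ALPP at 5.32.

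Of the 37 gene lists followed, the feedback inhibitors of ERK had the lowest median. Of 12 such genes 10 fell, 9 of them at least 2-fold, and 1 rose, with a median log2 fold change of -2.24. DUSP6 encodes the phosphatase that removes phosphate from ERK itself, and lies on chromosome 12 at 89347232 to 89353271 (hg38, GENCODE 29). It was measured at 37.3, 43.0 and 52.1 CPM in DMSO and at 0.505, 0.307 and 1.28 CPM under osimertinib. The arms lay far apart, and DUSP6 fell 64.0-fold (log2 -6.00, SE 0.36, adjusted p = 1.51e-06). SPRY4, a Sprouty inhibitor of receptor signalling, went from 33.0, 33.3 and 38.3 CPM to 0.328, 0.395 and 2.21 CPM, a log2 change of -5.17. SPRY2 fell by 1.68 on the log2 scale and the phosphatase genes DUSP4 and DUSP5 by 2.64 and 1.56. DUSP1, a stress-inducible phosphatase, rose by 1.43, but its arms overlapped and its call was lost without DMSO replicate 2, without DMSO replicate 3 or without osimertinib replicate 3, where the log2 change was 0.74.

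Of 18 transcription factors downstream of ERK, 11 fell and 5 rose, and the median was -0.98. The number that rose was 3 to 5 when a library was left out. ETV5 stood at 61.2, 60.8 and 62.8 CPM in DMSO and at 2.17, 2.26 and 2.83 CPM under osimertinib (log2 -4.67, adjusted p = 9.71e-08). ETV4 fell by 3.86 and ETV1 by 3.77. FOSL1, which encodes the AP-1 protein FRA1, went from 162, 114 and 140 CPM to 3.41, 2.81 and 12.7 CPM, a log2 change of -4.46. MYC, which drives growth and ribosome production, fell less, by 1.18, from a mean of 217 ± 20.3 CPM to 96.1 ± 33.4 CPM (SD, n = 3). Other AP-1 genes went either way, with JUN down at -1.44 and FOSL2, JUNB and JUND up by 0.60, 0.90 and 1.17. FOS and FOSB rose by 1.83 and 1.56, with arms that overlapped in both, and both calls were lost when osimertinib replicate 3, DMSO replicate 2 or DMSO replicate 3 was left out (for FOS, also osimertinib replicate 1). EGR1 did not pass the test (log2 -1.15, adjusted p = 0.373). Its DMSO libraries spread from 8.84 to 66.0 CPM and its treated libraries from 0.548 to 34.8 CPM, and its log2 change ran from -3.33, called, without osimertinib replicate 3 to 0.12 when another library was left out.

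Osimertinib replicate 3 held more ERK-target RNA than its fellow replicates. Among the 10 feedback inhibitors that fell, 8 were highest in that library among the treated ones, and among the 11 factors that fell 7 were, against 43.3% of the 4799 genes that fell in all. MYC was at 135 CPM there and at 75.4 and 78.2 CPM in the others, and EPHA2, a receptor kinase, at 169 CPM against 62.4 and 65.1 CPM. Replication genes had the same order, with that library highest among the treated ones in 81.2% of 32 cases. Without it 10 of the 12 feedback inhibitors fell, and leaving out each library in turn gave 9 or 10 and a median between -2.56 and -2.10. Single genes moved further, without that library to -6.58 for SPRY4, -6.78 for DUSP6, -5.49 for FOSL1, -5.15 for HBEGF, -2.80 for AREG and -1.76 for EPHA2. The part of that library's state in the results was not tested further.

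**Figure D2:**
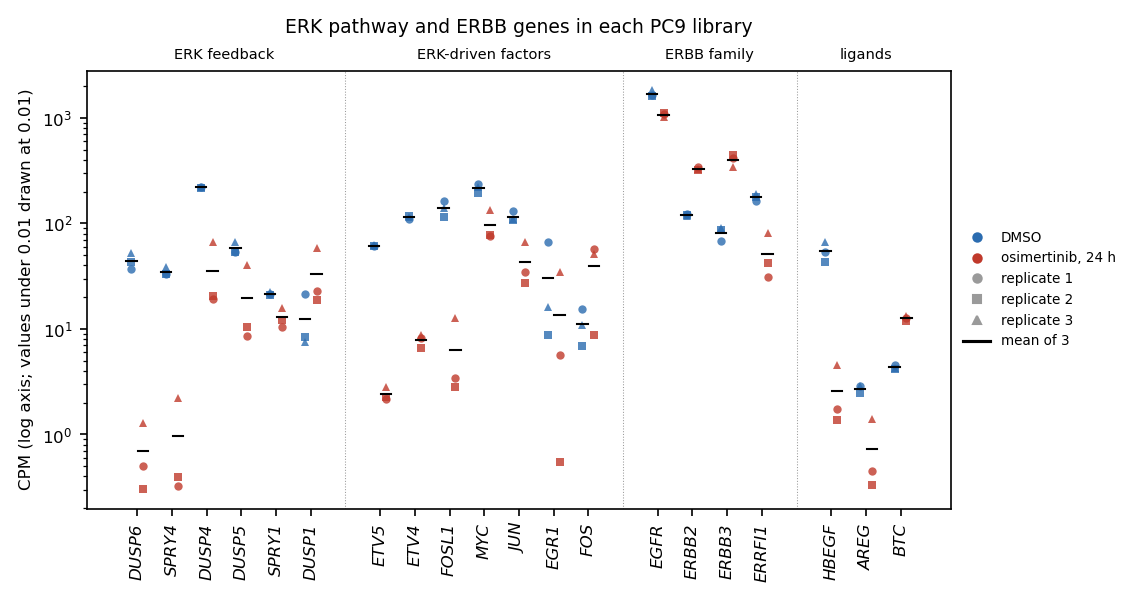
CPM of ERK pathway and ERBB genes in each of the 6 PC9 libraries on a log axis, with DMSO in blue, osimertinib in red, a marker shape for each replicate and a black bar at the mean of 3. DUSP6 and ETV5 show the arms far apart, EGR1 and FOS show them overlapping, and the red triangle of replicate 3 is the highest treated point for DUSP6, SPRY4, DUSP4, DUSP5 and FOSL1.

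The receptors of the EGFR family moved in different directions. EGFR itself fell 1.58-fold, from 1652, 1604 and 1814 CPM to 1088, 1098 and 1020 CPM (log2 -0.66, adjusted p = 1.97e-05). ERBB2 rose 2.72-fold, from 122, 120 and 118 CPM to 338, 317 and 324 CPM. ERBB3, the kinase-poor partner that couples the family to PI3K, rose 4.93-fold, from 67.5, 86.4 and 89.6 CPM to 418, 439 and 344 CPM (log2 2.30, adjusted p = 1.09e-06). In TPM, mean levels were 234 for EGFR, 39.8 for ERBB2 and 29.7 for ERBB3 in DMSO, and 147, 108 and 146 under osimertinib, so EGFR and ERBB3 reached similar levels. ERRFI1, the inducible EGFR inhibitor MIG6, fell by 1.79.

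Among 8 ligands of the family 2 fell and 2 rose, and when a library was left out the numbers were 2 to 4 and 1 to 3, with 4 falls without osimertinib replicate 3. HBEGF, a membrane-bound EGFR ligand, went from 53.8, 42.9 and 66.5 CPM to 1.74, 1.36 and 4.57 CPM and fell 21.4-fold (adjusted p = 1.17e-05). AREG, another ligand, fell by 1.90 from a low level of 2.72 CPM. BTC, or betacellulin, rose by 1.54 and EGF by 1.32, to means of 12.6 and 3.27 CPM. The call on EGF was lost when osimertinib replicate 1, DMSO replicate 1 or DMSO replicate 3 was left out.

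Genes of the cascade between the receptor and ERK had no common direction, with 5 of 20 higher, 8 lower and a median of -0.01. PTPN11, the phosphatase SHP2 that passes receptor signals to RAS, fell by 1.29 and MAP2K1, or MEK1, by 0.69. The adaptor gene GAB1 rose by 1.71, and SOS2, which loads RAS with GTP, by 1.25. Among receptor kinases often linked to bypass of EGFR inhibition and their ligands 5 of 13 genes rose and 6 fell. FGFR3 rose most, from 4.00, 4.20 and 3.07 CPM to 53.1, 59.7 and 53.4 CPM (log2 3.88). AXL fell by 0.83, MET by 0.54 and EPHA2 by 1.12, the last a call that DESeq2 did not make, while GAS6, the ligand of AXL, rose by 1.27.

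FOXO factors and their targets rose more often than not, with 14 of 22 higher and 4 lower, 11 and 3 of them at least 2-fold, and a median of 1.01. PIK3IP1, an inhibitor of PI3K, rose 47.8-fold, from 1.23, 2.36 and 1.39 CPM to 86.1, 94.9 and 62.0 CPM (adjusted p = 4.93e-07). TP53INP1, a stress and autophagy gene, rose by 5.63, and the repressor BCL6 by 2.67. Among the factors themselves FOXO4 and FOXO6 rose by 2.49 and 2.18, from 6.65 and 4.29 CPM to 37.5 and 19.5 CPM. FOXO3 rose by 0.45, and FOXO1 was at 0.10 and not called (adjusted p = 0.516). CDKN1B, which encodes the CDK inhibitor p27, rose by 0.82. Falls included IRS1, the insulin receptor substrate, from 74.6, 71.1 and 74.0 CPM to 23.6, 21.3 and 20.4 CPM, and TRIB2, a pseudokinase gene, by 2.25.

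BH3-only genes were higher as a group. Of 8 tested, 6 rose and none fell, with a median of 0.86. BMF, which releases BAX and BAK by binding BCL2 proteins, went from 11.4, 10.8 and 5.72 CPM to 198, 175 and 222 CPM, a 21.3-fold rise (log2 4.41, SE 0.23, adjusted p = 8.63e-07). HRK rose by 2.47. BCL2L11, which encodes BIM, rose by 0.94, from 21.2, 22.9 and 25.6 CPM to 39.8, 46.1 and 47.6 CPM, with no overlap between the arms. Of the 7 survival and effector genes of the BCL2 family 4 fell and none rose. BCL2 fell by 1.82 and BCL2L1, or BCL-XL, by 0.75, and the pore-forming effector BAK1 by 0.80. MCL1, another survival gene, was at -0.05 (SE 0.10, adjusted p = 0.683). Inhibitor of apoptosis genes rose in 4 of 8 cases, led by BIRC7, or livin, from a mean of 0.135 CPM to 16.2 CPM, and by BIRC3, or cIAP2, by 1.86. BIRC5, the mitotic gene survivin, fell by 1.47.

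All 32 genes of DNA replication that were listed fell, 29 of them at least 2-fold, with a median of -1.97, and 32 were lower also when any single library was left out. CDC6, which loads the replicative helicase, went from 108, 127 and 126 CPM to 11.7, 4.52 and 15.4 CPM (log2 -3.53, SE 0.35, adjusted p = 2.41e-05). MCM10 fell by 3.30. Of 27 mitosis genes 26 fell, with a median of -1.61, led by the cyclin-dependent kinase CDK1 by 2.17 and the checkpoint gene MAD2L1 by 2.14. MKI67, the source of the Ki-67 antigen, fell by 1.28 and the topoisomerase gene TOP2A by 1.67. DNA repair genes fell in 19 of 23 cases, with XRCC2 at -2.65. Within the treated arm replicate 2 was the lowest for CDC6, MCM10 and CDK1, at 23.6 CPM for CDK1 against 36.3 and 36.5 CPM.

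The G1 machinery was mixed. Of 22 genes 13 fell and 5 rose. E2F7 fell by 2.80 and the cyclin gene CCNE1 by 1.99. CCND1, or cyclin D1, fell by 0.53, from 551, 484 and 444 CPM to 323, 302 and 401 CPM, a call lost in the fit over all 60 libraries. Among CDK inhibitors CDKN2B (p15) rose by 3.02 and CDKN1C (p57) by 3.51, whereas CDKN1A (p21) fell by 1.04.

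Promoters of the replication and mitosis genes carry known cell-cycle elements, E2F elements in the first and the cell-cycle homology region (CHR) in the second. They were read in RefSeq promoters (GRCh38.p14), from 250 bases before to 50 bases after the start, on both strands. The E2F letters searched were TTTCCCGC and TTTGGCGC, and the CHR letters TTTGAA and TTCGAA. An E2F element was found in 53.6% of 28 replication promoters, in 6.14% of promoters of genes at least 2-fold lower and in 3.59% of 11072 promoters of all genes tested. CHR letters were found in 72.7% of 22 mitosis promoters, in 17% of those of the genes at least 2-fold lower and in 11.2% of all. The CCAAT box was in 77.3% of mitosis promoters against 36.3% of all. FOXO letters (GTAAACA) were in 15% of 20 promoters of the FOXO list and in 2.29% of all. An E-box (CACGTG) was in 36.4% of 22 promoters of ribosome biogenesis genes and in 9.8% of all. The ETS core (CCGGAAG) was in 40.9% of those 22 and in 18.4% of all. It was in 17.5% of promoters of genes at least 2-fold lower and in 8.27% of those at least 2-fold higher. AP-1 letters (TGACTCA) were in 3.03% of promoters of genes at least 2-fold lower, 5.01% of those at least 2-fold higher and 3.22% of all. TTCGAA and CACGTG read the same on both strands, and none of the stretches searched contains another. A match is a stretch of letters and says nothing of a bound factor.

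The promoters printed here belong to the 3 replication genes with the largest fall that hold an E2F match upstream of the start and to the 3 such mitosis genes with a CHR match. They are shown so that the element can be seen in place, with the match in capitals (as searched or as its reverse complement), 5′ to 3′ on the strand of the gene and ending at the base before the start. RFC3 (log2 -2.61) is at chr13:33818029-33818148 on the plus strand, GINS2 (-2.36) at chr16:85688955-85689074 on the minus strand, TYMS (-2.30) at chr18:657533-657652 on the plus strand, CDK1 (-2.17) at chr10:60778150-60778330 on the plus strand, KIF11 (-1.77) at chr10:92593010-92593129 on the plus strand and TOP2A (-1.67) at chr17:40417897-40418110 on the minus strand.
RFC3: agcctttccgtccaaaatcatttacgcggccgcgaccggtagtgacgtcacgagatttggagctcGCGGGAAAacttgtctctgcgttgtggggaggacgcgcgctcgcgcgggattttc
GINS2: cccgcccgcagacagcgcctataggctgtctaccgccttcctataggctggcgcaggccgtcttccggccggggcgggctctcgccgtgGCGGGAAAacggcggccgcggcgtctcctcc
TYMS: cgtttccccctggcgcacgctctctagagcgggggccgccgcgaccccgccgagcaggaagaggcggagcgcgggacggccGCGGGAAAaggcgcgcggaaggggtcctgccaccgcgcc
CDK1: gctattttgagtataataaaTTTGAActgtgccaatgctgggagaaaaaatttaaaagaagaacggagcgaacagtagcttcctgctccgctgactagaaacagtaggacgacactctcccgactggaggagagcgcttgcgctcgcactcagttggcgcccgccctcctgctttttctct
KIF11: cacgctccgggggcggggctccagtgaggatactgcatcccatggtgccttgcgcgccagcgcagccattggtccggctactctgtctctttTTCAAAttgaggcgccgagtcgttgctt
TOP2A: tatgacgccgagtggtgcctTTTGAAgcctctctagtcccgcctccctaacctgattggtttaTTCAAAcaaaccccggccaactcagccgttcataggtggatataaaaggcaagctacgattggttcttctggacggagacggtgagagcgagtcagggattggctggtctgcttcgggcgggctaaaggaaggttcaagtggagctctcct
The match in RFC3 began 55 bases before the start, in GINS2 31 and in TYMS 39. In KIF11 it began 28 bases before the start, in CDK1 161, and TOP2A held 2 matches.

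Ribosome biogenesis genes fell almost throughout, 26 of 27 lower and 21 at least 2-fold, with a median of -1.41. LYAR, a nucleolar growth gene, fell by 3.20. NOP56, a core protein of box C/D snoRNPs, went from 382, 354 and 396 CPM to 77.1, 64.5 and 72.9 CPM (log2 -2.40). Genes of the cytosolic ribosomal proteins stood apart from this, with 12 of 82 higher, 17 lower and a median of -0.02, and the number higher was 6 to 10 when a library was left out, 6 without DMSO replicate 3. The share of counts on them was 5.1 to 5.45% in every library. Their largest fall was in RPS10 by 1.63, but ribosomal protein genes have many pseudogene copies, so single values are uncertain.

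Genes of amino acid and sugar metabolism were mostly lower. Of 29 genes of the ATF4 programme and of tRNA charging 23 fell, with PSAT1, a serine synthesis enzyme, at -2.65 and MTHFD2, of mitochondrial folate metabolism, at -1.88, while DDIT4 and DDIT3 rose by 0.97 and 0.86. Of 20 glycolysis genes 15 fell, with a median of -0.80. ENO1, or enolase 1, went from 1760, 1584 and 1755 CPM to 673, 640 and 703 CPM. PFKFB3, which makes an activator of glycolysis, rose by 1.00. Respiratory chain genes were lower in 41 of 76 cases but rarely by 2-fold, with 2 of them past it and a median of -0.27.

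Sterol genes spread widely within the arms. In the cholesterol list 2 of 23 genes fell and 1 rose, and when a single library was left out the number that fell ranged from 1 to 9, with 9 without DMSO replicate 1 and 6 without osimertinib replicate 2. HMGCS1, an early enzyme of sterol synthesis, was at 115, 293 and 218 CPM in DMSO and at 176, 300 and 164 CPM under osimertinib and was not called (adjusted p = 0.94). DMSO replicate 1 was the lowest of its arm and osimertinib replicate 2 the highest of its own, and the arms overlapped. TM7SF2, a sterol reductase, rose by 2.80. Of 12 fatty acid synthesis genes 6 fell, a number that ranged from 4 to 9 when a library was left out. FASN, the fatty acid synthase, fell by 0.99 and ACLY, which supplies its acetyl-CoA, by 0.88.

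**Figure D3:**
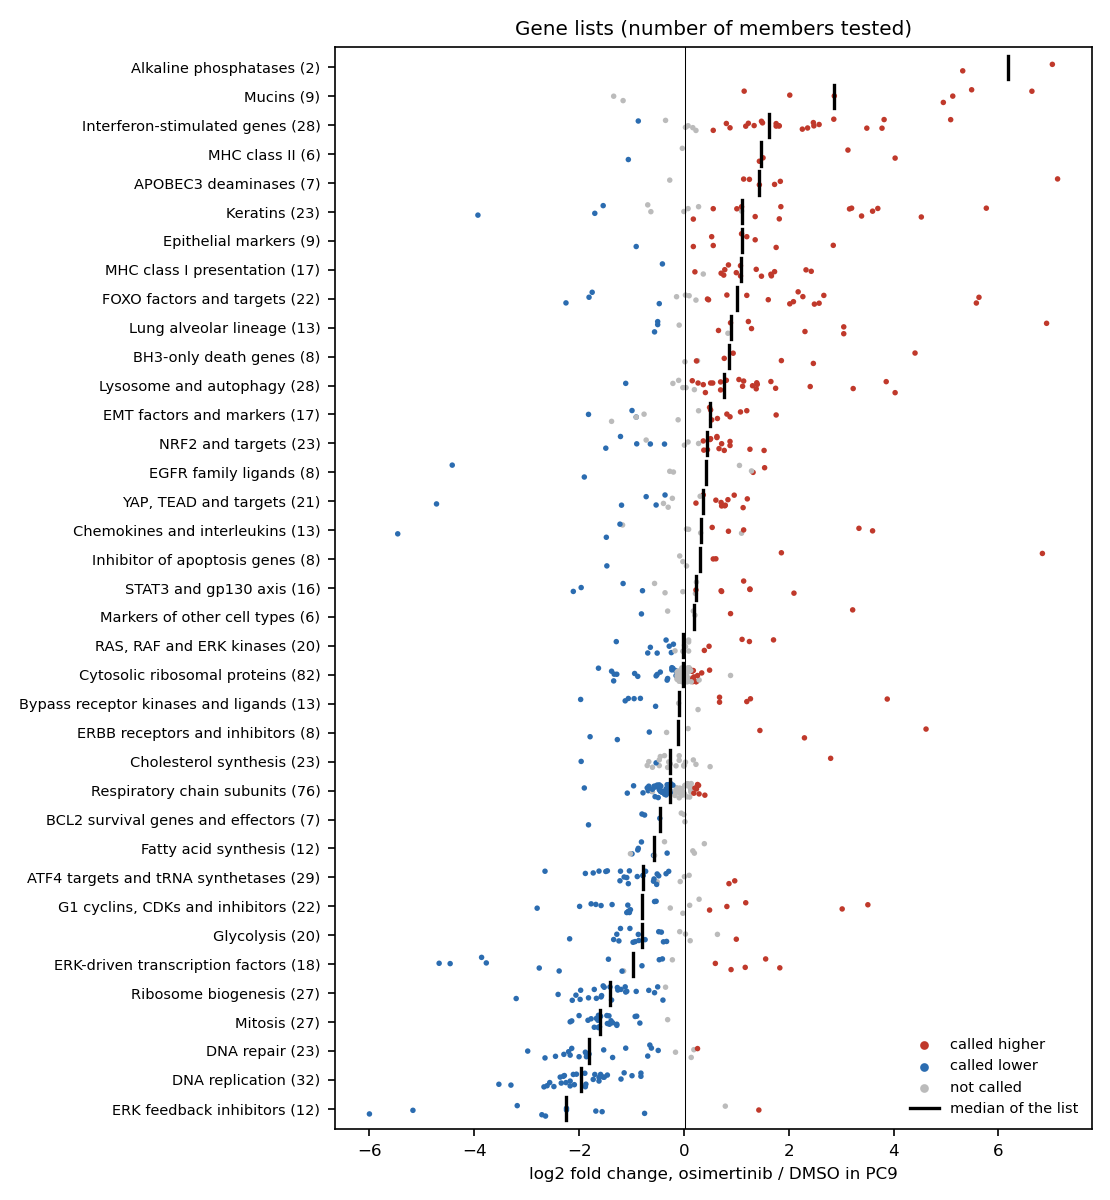
log2 fold changes, osimertinib over DMSO in PC9, of the members of 37 gene lists that were tested, ordered by the median of the list (black bar), with genes called higher in red, called lower in blue and not called in grey, and the number tested in parentheses. Replication, repair, mitosis and ribosome biogenesis lie almost wholly below 0, whereas BH3-only genes, lysosome, class I presentation, interferon-stimulated genes and mucins lie mostly above it.

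Lysosome and autophagy genes rose in 22 of 28 cases, 13 of them at least 2-fold, with a median of 0.76. CALCOCO1, an autophagy receptor, went from 14.1, 23.5 and 17.1 CPM to 243, 317 and 237 CPM (log2 3.86). GABARAPL1, which encodes a coat protein of autophagosomes, rose by 3.23. CTSS, the cathepsin of antigen processing, rose by 4.03 from a low level of 0.304 CPM. GLA, a lysosomal galactosidase, was the 1 gene that fell, by 1.11.

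Of 33 interferon-stimulated genes 28 had enough counts to be tested, and of these 22 rose and 1 fell, with a median of 1.63. The 5 that were too low went either way. ISG15 had 41 counts over the DMSO libraries and 25 over the treated ones, and IFIH1 34 and 16. RSAD2 had 1 and 6, IFI27 6 and 20, and IFI44L 11 and 35. IFIT2, an antiviral protein gene, went from 4.33, 6.28 and 5.22 CPM to 53.3, 81.1 and 90.9 CPM (log2 3.82). IFI6 rose by 3.78 from a low mean of 0.517 CPM. USP18, which restrains interferon signalling, fell by 0.87. STAT2, a transcription factor of the interferon response, rose by 2.47. Genes of MHC class I presentation rose in 15 of 17 cases, with a median of 1.08, among them HLA-F by 2.43 and the immunoproteasome subunit PSMB9 by 2.33, and TAP2, a peptide transporter subunit, fell by 0.41, a call lost in the fit over all 60 libraries. Reads of HLA genes can be split between near-identical members. Of 14 class II genes 6 had enough counts to be tested, and HLA-DMA rose by 3.13 to 12.6 CPM while the transactivator CIITA fell by 1.06.

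The STAT3 axis gave 7 genes higher and 4 lower of 16. STAT3 itself rose from 110, 109 and 93.9 CPM to 232, 267 and 254 CPM (log2 1.26), and its feedback inhibitors SOCS2 and SOCS3 fell by 2.11 and 1.96. LIF, a cytokine that signals through STAT3, fell by 1.22, and IL1RN, which blocks the interleukin 1 receptor, rose by 3.34. Of 29 chemokines and interleukins 13 had enough counts to be tested, and of these 5 rose and 3 fell. CCL28, a mucosal chemokine, was up by 3.60, but only from a mean of 0.121 CPM to 1.52 CPM, and IL11 was down at -1.48.

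Of 23 genes of the NRF2 antioxidant programme 14 rose and 5 fell. FTH1, the heavy chain of the iron store ferritin, was among the most abundant of the genes that rose and went from 2307, 2239 and 2034 CPM to 6307, 6520 and 6240 CPM (log2 1.53), although it too has many pseudogene copies. HMOX1, or heme oxygenase, rose by 1.26, whereas the cystine transporter gene SLC7A11 fell by 1.49 and SRXN1 by 1.21. Among YAP and TEAD genes 11 of 21 rose and 5 fell. ANKRD1, a classical YAP target, went from 38.0, 43.7 and 37.4 CPM to 1.21, 1.47 and 1.84 CPM (log2 -4.72). Other targets did not share this fall. CCN1 and CCN2 were at -0.30 and 0.74 and not called, and AMOTL2 and AJUBA rose by 0.84 and 0.71. TEAD4 fell by 1.19, YAP1 rose by 0.23 and CRIM1 by 1.13.

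Epithelial genes gained RNA. Of 9 epithelial markers 8 rose and 1 fell, and together they stood at 9100 to 9443 TPM in the DMSO libraries and at 16193 to 17494 TPM under osimertinib. CDH1, or E-cadherin, went from 296, 280 and 311 CPM to 643, 669 and 723 CPM (log2 1.20). KRT8, a keratin with many pseudogene copies, which make its value uncertain, rose from 3711, 3568 and 3494 CPM to 7405, 7812 and 7868 CPM, and ELF3, an epithelial ETS factor, by 2.85. EPCAM was the marker that fell, by 0.91. Of 17 factors and markers of epithelial to mesenchymal transition, a list that holds markers of both states, 9 rose and 3 fell, and 5 fell without osimertinib replicate 3. VIM, the mesenchymal intermediate filament, fell by 1.82 from a mean of 23.3 CPM. Among 18 markers of other cell types HBB was at 0 in every library, and the blood cell markers PTPRC and CD3E reached at most 0.143 and 0.0279 TPM. The myeloid markers CD14 and LYZ reached at most 0.244 and 0.945 TPM, and the fibroblast markers COL1A2, COL3A1, DCN and LUM at most 0.116, 0.0172, 0.266 and 0.0486 TPM. Higher were CD68, a lysosomal protein used as a macrophage marker, at 23.5 to 39.4 TPM, the collagen COL1A1 at 5.9 to 14.9 TPM, and the endothelial markers PECAM1 at 5.22 to 10.2 TPM and CDH5 at 2.08 to 5.5 TPM, and 6 of the 18 had enough counts to be tested, of which 2 rose and 1 fell.

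Of 54 keratins 23 had enough counts to be tested, and 14 of these rose. KRT13, a keratin of stratified mucosa, went from 34.7, 77.7 and 70.2 CPM to 970, 759 and 642 CPM (log2 3.70), and KRT4, its usual partner, rose by 5.77, whereas KRT6B fell by 3.93. Of 17 mucins 9 had enough counts to be tested, and 7 of these rose, with a median of 2.87. The number that rose was 5 to 7 when a library was left out, and 1 fell without osimertinib replicate 1. MUC20 went from 8.47, 19.0 and 10.8 CPM to 624, 654 and 450 CPM, a 44.8-fold rise (adjusted p = 1.05e-06). MUC15 was at 0, 0.0422 and 0.0262 CPM in DMSO, too low for a fold, and at 1.61, 3.66 and 2.90 CPM under osimertinib. It had enough counts only in the treated arm. A gene near 0 in DMSO is tested only if it is high under the drug, so such rises are no support by themselves.

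Of 23 markers of the lung alveolus 13 had enough counts to be tested, and of these 8 rose and 3 fell. Among the 10 that were too low were the surfactant genes SFTPA1, SFTPA2, SFTPB and SFTPC. They had 2, 6, 23 and 1 counts over the DMSO libraries and 2, 17, 30 and 4 over the treated ones. AQP5 and FOXA2, also too low, went from 31 to 6 counts and from 13 to 0. The summed level of all 23 was 322 to 355 TPM in DMSO and 468 to 532 TPM under osimertinib. CAV1, a caveolar gene of type I cells, had the highest level of those tested, at 203 and 373 TPM (log2 0.89). Its rise was about as large as that of the sum, so the sum mainly follows this 1 gene. SFTPD, a surfactant protein gene, went from 0.365 to 3.08 CPM and HOPX from 0.475 to 4.02 CPM. NKX2-1, the lung lineage factor, was at 0.651 CPM and 1.17 CPM and just missed the threshold (log2 0.84, adjusted p = 0.0509), which it passed without DMSO replicate 1 and in the fit over all 60 libraries. LAMP3 and ABCA3, genes of the lamellar body, fell by 0.56 and 0.50, and the call on LAMP3 was lost without DMSO replicate 1 and in the fit over all 60 libraries.

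2 groups of paralogues rose steeply. ALPP, the placental alkaline phosphatase, went from 144, 130 and 110 CPM to 4820, 5554 and 5014 CPM, a log2 change of 5.32 (adjusted p = 7.12e-08), and lies on chromosome 2 at 232378534 to 232382889. ALPG, its near-identical neighbour, rose by 7.03 from 0.611 CPM, and reads of the pair may have been split between them in counting. Of 7 APOBEC3 cytidine deaminases 6 rose. APOBEC3A went from 0, 0.105 and 0.184 CPM to 15.7, 12.5 and 14.2 CPM and APOBEC3F rose by 1.84, and values of members of this family are uncertain for the same reason.

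**Figure D4:**
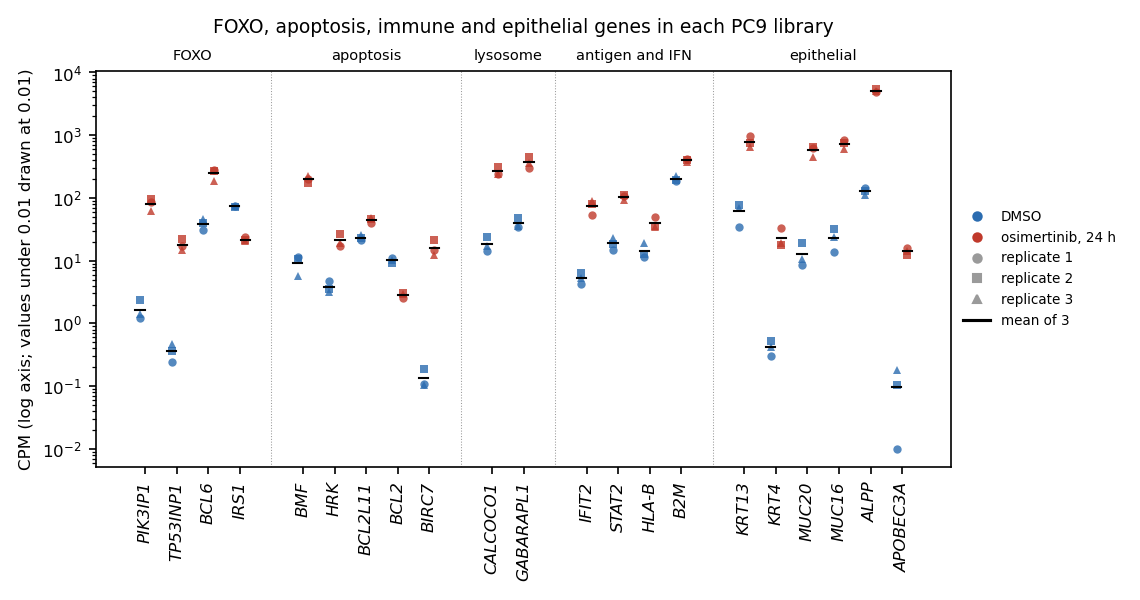
CPM of FOXO, apoptosis, lysosome, immune and epithelial genes in each of the 6 PC9 libraries on a log axis, with DMSO in blue, osimertinib in red, a marker shape for each replicate and a black bar at the mean of 3. The arms do not overlap for any gene shown, and IRS1 and BCL2 are the genes that fell.

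Across all genes with at least 5 CPM in an arm, the 10 largest rises were AGXT (log2 7.35), CLIC3 (7.24), APOBEC3A (7.13), ALPG (7.03), BIRC7 (6.84), NKAIN4 (6.41), ATG9B (6.27), ATP6V1B1 (5.92), LBH (5.90) and SELENOP (5.90). The value of LBH was 7.73 without DMSO replicate 2, so the order within these 10 is loose. AGXT, a peroxisomal aminotransferase, went from 0.0272, 0.0844 and 0.184 CPM to 20.1, 14.8 and 14.6 CPM. The 10 largest falls were COL13A1 (-8.14), DUSP6 (-6.00), ACOX2 (-5.56), HSD3B1 (-5.52), NTSR1 (-5.24), PTX3 (-5.22), SPRY4 (-5.17), G0S2 (-5.17), IL1R2 (-5.07) and SH3RF3 (-5.01). COL13A1, a transmembrane collagen, went from 28.0, 33.8 and 34.9 CPM to 0.126, 0.0219 and 0.197 CPM. Among abundant genes HSP90AA1, the stress-inducible HSP90, fell from 8225, 7513 and 7931 CPM to 2684, 2463 and 2766 CPM, and AHNAK and KRT19 rose by 1.08 and 1.36.

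The PC9 effect was then set against the mean effect in HCC827, H1975 and HCC2935, with the test of the difference itself over 24 libraries. Of 15970 genes 4488 differed (28.1%), 2337 with a higher effect in PC9 (14.6%) and 2151 with a lower one (13.5%). Differences here are log2 values, PC9 minus the mean of the others. Class I presentation had a higher effect in 14 of 17 genes and interferon-stimulated genes in 15 of 33, all of which had enough counts over the 24 libraries. Medians over the members tested in PC9 alone were 1.08 and 1.63. In the other lines these medians were 0.40, 0.49 and 0.33 for class I and 0.71, 0.52 and 0.36 for interferon-stimulated genes in HCC827, H1975 and HCC2935. Ribosome biogenesis had a lower effect in 16 of 27 genes and ATF4 and tRNA genes in 18 of 29. The median of ribosome biogenesis was below 0 in all 4 lines, at -1.41 in PC9 and -0.64, -1.05 and -0.94 in HCC827, H1975 and HCC2935. For ATF4 and tRNA genes it was -0.78 in PC9, -0.56 in HCC827, 0.07 in H1975 and 0.01 in HCC2935, so HCC827 also had a lower median.

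Of the cell-cycle lists, mitosis and G1 genes differed between lines more often than all genes tested, and replication genes did not. Of 27 mitosis genes 12 had a higher effect, that is a smaller fall, and none a lower one, with medians of -1.61 in PC9, -2.27 in HCC827, -2.14 in H1975 and -1.50 in HCC2935. Replication genes had a higher effect in 6 of 32 cases and a lower one in 1, against 14.6% and 13.5% of all genes tested. Their median was -1.97 in PC9, within the range of -1.99, -1.78 and -2.38 in HCC827, H1975 and HCC2935. Of 23 G1 genes 10 had a higher effect in PC9 and 4 a lower one, with a median difference of 0.54. CCND1, a member of that list, fell by 2.53, 2.70 and 3.12 in HCC827, H1975 and HCC2935 against 0.53 in PC9, a difference of 2.25 (SE 0.28, adjusted p = 3.4e-06).

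Some genes had opposite directions in different lines. HBEGF fell by 4.42 in PC9 and by 1.91 in HCC2935, rose by 2.26 in HCC827 and was not called in H1975, and the PC9 effect differed by -4.80 from the mean of the others (adjusted p = 2.04e-06). ANKRD1 rose by 2.91 and 2.97 in HCC827 and H1975 and fell by 4.72 in PC9 (difference -6.36), and in HCC2935 it was at -0.95 and not called. VIM rose by 0.44 in HCC827 and fell by 1.82 in PC9, and CDKN1A rose by 1.35 in H1975 and fell by 1.04 in PC9, and neither was called in the other two lines. BMF rose in all 4 lines, by 4.41, 2.43, 1.30 and 2.54 in PC9, HCC827, H1975 and HCC2935, with a difference of 2.31. DUSP6, ETV4, ETV5, SPRY4 and FOSL1 fell in all 4 lines, and only DUSP6 and ETV5 of these 5 differed from the mean of the others, by -1.84 and -1.27. The deep fall of DUSP6 was not particular to PC9, since it fell by 5.52 in HCC2935. The median of the ERK feedback inhibitors was -2.72 in HCC2935 and -2.24 in PC9.

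**Figure D5:**
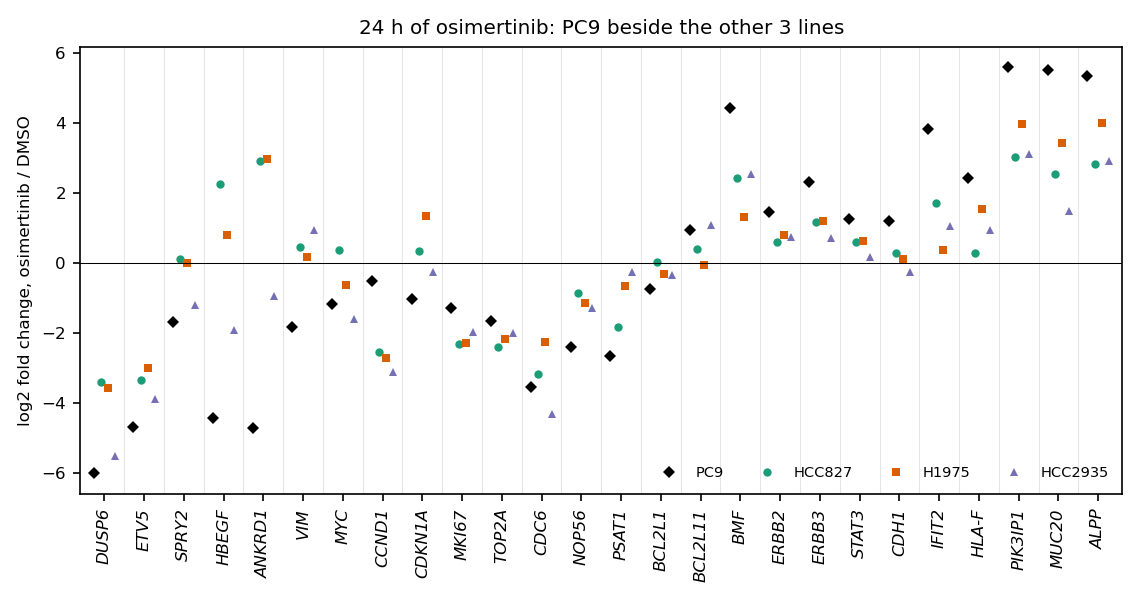
log2 fold change, osimertinib over DMSO at 24 h, of 26 genes in PC9 (black diamonds), HCC827 (green circles), H1975 (orange squares) and HCC2935 (purple triangles), each from the fit of that line's own 6 libraries and drawn without error bars. HBEGF and ANKRD1 lie below 0 in PC9 and above it in HCC827, and CCND1 lies higher in PC9 than in the others.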

How the data were processed

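RNA was sequenced after mRNA selection from PC9, HCC827, H1975 and HCC2935 cells. The submitters' processing notes name HISAT2 2.1.0, Salmon 0.8.2 and hg38. The authors deposited estimated counts per gene, not normalised, and log2 values of TPM with a pseudocount of 0.01. The deposited tables hold 19712 genes and 60 libraries, and 266 symbols written with a dot had their hyphen restored. Of the count cells 83.9% held a fraction, so expected counts were rounded to whole numbers. Because reads were assigned to genes by estimation, near-identical genes share reads, and use of strand is not stated in the sources used here. Of the 157 named genes 76 overlap another gene on the opposite strand and 45 on the same strand.

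Genes passed filterByExpr, libraries were scaled by TMM, and the PC9 arms were compared with the quasi-likelihood F-test of edgeR 4.0.16 (limma 3.58.1, R 4.3.3) over the 6 PC9 libraries alone, with Benjamini-Hochberg adjustment over all genes tested and a threshold of 0.05. CPM values are scaled by TMM and errors are SE of the log2 fold change or SD over 3 libraries. The difference from other lines was a contrast among 8 group means over 24 libraries. Alternatives were DESeq2 1.42.0, other scalings and filters, all 60 libraries, limma on log2 TPM, a replicate block, a threshold of 0.01, each other line alone and leaving out each library. The scripts were tested on simulated counts. Depth was 36.9 to 47.1 M counts per library. The squared difference between 2 replicates was on average 16.8 to 32.2 times the variance that counting error alone would give.

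The comparison, gene lists and tests were chosen with earlier results of these data known. Named genes were, per list, up to 2 largest rises and 2 largest falls among called genes whose mean reached 1 CPM in either arm, 29 core genes whether called or not, the 10 largest rises and falls of at least 5 CPM with no overlap between arms, the 6 genes of most counts changed at least 2-fold, and the 5 highest and 5 lowest differences from the other lines. Other list members were named after their values were seen, among them DUSP4, DUSP5, ETV1, JUN, JUNB, JUND, FOSL2, FOXO4, FOXO6, BCL6, CAV1, HMGCS1, GABARAPL1, STAT2, CCN1, CCN2, AMOTL2, AJUBA, genes too low to test and markers of other cell types. RFC3, GINS2, TYMS and KIF11 came from the rule for printed promoters. Promoters came from RefSeq (GRCh38.p14) by symbol and matched 11072 of 14076 genes. Coordinates of genes are those of GENCODE 29 on hg38. The later drug arms were not analysed here, and values of a few genes are not reported here.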

Additional observations from a re-analysis of the deposited data

Results flagged for a closer look

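The effect in PC9 differed from the mean effect in HCC827, H1975 and HCC2935 by the test of the difference (edgeR's quasi-likelihood test, adjusted over 15970 genes) for the following named genes, where values are log2 differences, PC9 minus the mean of the others. Feedback and growth genes with a lower effect in PC9 were DUSP6 (-1.84), SPRY2 (-1.32), ETV5 (-1.27), HBEGF (-4.80), CDKN1A (-1.53), ANKRD1 (-6.36) and VIM (-2.33). Against HCC2935 alone the difference of DUSP6 was -0.49 and not called (adjusted p = 0.573). CCND1 (2.25), MKI67 (0.91), TOP2A (0.52) and MET (0.47) had a higher effect in PC9, which for all 4 was a smaller fall than the mean of the others. Genes of apoptosis were BMF (2.31), BCL2L11 (0.46, adjusted p = 0.0453) and BCL2L1 (-0.54). Receptors and other genes that rose more in PC9 were ERBB2 (0.72), ERBB3 (1.27), STAT3 (0.79) and CDH1 (1.15). The 5 highest differences were those of AGXT (8.17), KL (5.82), FOXI1 (5.66), CLIC3 (5.21) and APOBEC3A (5.09), and the 5 lowest those of COL13A1 (-6.94), ANKRD1, SH3RF3 (-5.61), NTSR1 (-5.00) and HBEGF, among genes of at least 5 CPM in a PC9 arm. Genes near 0 in other lines could pass the filter on low counts through the PC9 arm where they were high, so being listed here is no support by itself. In the fits of single lines, KL and FOXI1 were under the filter in all 3 others, AGXT in HCC827 and HCC2935, APOBEC3A and NTSR1 in 2 of the 3 and SH3RF3 in H1975 and HCC2935. Among these highest and lowest differences, the threshold was missed against a single line for FOXI1 with H1975 (adjusted p = 0.0509) and, with HCC827, for APOBEC3A (0.182) and NTSR1 (0.196). Groups of 3 libraries are too small for a test of single outlying samples.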

How the results depend on the processing

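The counts of called genes in PC9 kept within 1.5 times their value under every alternative except 1: with limma on log2 of TPM + 1, 1438 genes were called at least 2-fold higher in place of 2273, and 1383 at least 2-fold lower in place of 1763. Genes called ranged from 7913 at an adjusted p under 0.01 to 9743 with no filter, with 9660 by DESeq2, 9317 over all 60 libraries and 9003 to 9188 when a library was left out. For the difference from the other lines, an adjusted p under 0.01 left 2847 genes, 1519 higher and 1328 lower, in place of 4488, and leaving out a library gave 3663 to 4861. Scaling by library size alone moved that split to 2050 higher and 2514 lower. Signs of single differences turned in 7 cases: against HCC2935 alone for BCL2L11 (-0.16), CCNE1 (0.65), DDIT4 (-0.88), E2F7 (0.0319) and LIF (1.08), and against H1975 alone for MET (-0.23) and SNAI1 (-1.29), where the construction replaces the mean of 3 lines by 1 line. Deviations of libraries with the same replicate number from their arm means correlated at -0.0305, 0.236 and -0.0765 for replicates 1, 2 and 3. The value for replicate 2 was the highest of all pairs across arms, beside 0.234 for DMSO replicate 1 with osimertinib replicate 3. With 3 libraries in an arm these values cannot decide whether libraries of the same number were paired. With a replicate block 9445 genes were called, 4719 higher and 4726 lower, 3940 differed between lines, and 1 of 157 named genes, RPS27, lost its call. Leaving out a library took the call from 2 to 8 of the named genes, among them DUSP1, FOS, FOSB and EGF, and an adjusted p under 0.01 from 15. In the lists of apoptosis inhibitors, lysosome and interferon-stimulated genes the 1 gene that fell became up to 2 when a library was left out. Low counts limit precision for several of the largest rises, which start from a few counts per library.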
